A study of Mus musculus with 4 samples.

Results

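The 10 genes *Gata1*, *Gata2*, *Gata3*, *Zfpm1*, *Spi1*, *Cebpa*, *Cebpb*, *Gfi1*, *Irf8* and *Nfe2*, the transcription factors and 1 cofactor that steer blood progenitors toward red cell, platelet or myeloid fates, were read by symbol from an RNA-Seq table of hematopoietic stem cells (HSCs) with and without *Id2*. Each symbol had 1 row, so the set is 10 of 19354 genes. The controls were *Mx1-Cre; Id2+/+* mice and the test group *Mx1-Cre; Id2 fl/fl* mice, called *Id2+/+* and *Id2Δ/Δ* here. Both genotypes carried the *Mx1-Cre* transgene, both received pIpC, and marrow was taken 2 weeks later from mice aged 8 to 16 weeks. *Mx1-Cre* is switched on by interferon and cuts in blood cells and in other cells that respond to interferon, so the deletion was not limited to HSCs. Cells were sorted as LSK (lineage negative, SCA-1 positive, KIT positive), FLT3-, CD48- and CD150+. RNA came from 14 *Id2+/+* and 15 *Id2 fl/fl* mice, pooled over 2 experiments, and each genotype gave 2 libraries, here replicates 1 and 2. The labels do not tie a library to an experiment.

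The values are log2 counts-per-million (CPM), quantile-normalized by the authors. The depths recovered from the values were 14200000 and 15700000 reads for *Id2+/+* and 17800000 and 18800000 reads for *Id2Δ/Δ*. For *Id2* itself, *Id2+/+* replicates 1 and 2 gave 93 and 98 reads, and neither *Id2Δ/Δ* replicate gave any (0 and 0). All 14 genes on a fixed list of HSC markers, which also holds *Cd48* and *Flt3*, had values. They summed to 5961 and 5802 CPM in *Id2+/+* and 4329 and 4926 CPM in *Id2Δ/Δ*. The sum leans on abundant genes, above all *Kit*, with 11.08 and 10.93 against 10.19 and 10.55 log2 CPM. By log2 fold change, 3 of the 14 were higher and 11 lower in *Id2Δ/Δ*, with a median of -0.21. The labels do not say whether the 2 libraries of a genotype came from separate pools of mice or from the same pool. The p-values therefore measure the spread between 2 libraries a genotype, which may not be the spread between mice. In bulk RNA, fewer cells of a type and less RNA per cell cannot be told apart.

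ID2 belongs to the inhibitors of DNA binding. It has a helix-loop-helix domain without a DNA-binding region, and it holds E proteins off the E-box, the DNA site they share with TAL1 and LYL1. GATA1 and GATA2 read GATA sites, often in one complex with TAL1 and LMO2, and GATA1 takes over from GATA2 as progenitors become erythroid. PU.1, the product of *Spi1*, and the C/EBP factors drive granulocyte and macrophage fates, and GATA1 and PU.1 can each block the other. GFI1 favors granulocytes and IRF8 favors monocytes and dendritic cells.

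The DNA just before a RefSeq start of 3 of the genes is shown, chosen after their values were seen. *Gata1* had the largest genotype difference of the set, *Gata2* the smallest, and *Cebpb* the widest gap between libraries of one genotype. Each sequence holds the 250 bases before a RefSeq transcript start on GRCm38.p6, read in the direction of the gene. They lie at chrX:7967911-7968160 on the minus strand for *Gata1*, chr6:88193641-88193890 on the plus strand for *Gata2* and chr2:167688665-167688914 on the plus strand for *Cebpb*. The *Gata1* window lies inside the gene span given below, which begins farther upstream, at 7978071. Capitals mark matches, on either strand, to the E-box (CANNTG), a GATA site (GATAA), an ETS core of the kind PU.1 binds (GAGGAA) and a C/EBP site (TTNNGNAA).
Gata1: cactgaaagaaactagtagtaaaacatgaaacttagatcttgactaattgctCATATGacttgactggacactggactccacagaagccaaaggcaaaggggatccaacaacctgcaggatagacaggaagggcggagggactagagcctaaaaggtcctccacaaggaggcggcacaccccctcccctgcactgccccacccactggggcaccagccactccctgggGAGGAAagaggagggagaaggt
Gata2: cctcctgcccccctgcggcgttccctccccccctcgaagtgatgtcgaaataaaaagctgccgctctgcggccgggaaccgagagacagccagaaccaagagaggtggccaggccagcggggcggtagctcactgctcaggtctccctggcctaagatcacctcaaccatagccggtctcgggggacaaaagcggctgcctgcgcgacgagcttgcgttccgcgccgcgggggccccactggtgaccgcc
Cebpb: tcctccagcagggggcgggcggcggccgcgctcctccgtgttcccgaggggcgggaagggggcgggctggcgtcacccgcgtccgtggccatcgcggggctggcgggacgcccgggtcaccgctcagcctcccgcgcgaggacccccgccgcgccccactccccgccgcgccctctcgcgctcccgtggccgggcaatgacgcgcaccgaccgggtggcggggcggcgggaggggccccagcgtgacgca

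The *Gata1* window held 1 E-box, 198 bases before the start, and 1 ETS core, 22 bases before it. It had 2 CG dinucleotides, against 22 in the *Gata2* window and 41 in the *Cebpb* window, and its GC content was 54.0%, against 67.2% and 81.6%. The median GC content of all promoter windows was 52.4%. The *Gata2* and *Cebpb* windows shown held none of the 4 motifs. *Gata2* has another RefSeq start, and the window before it (chr6:88198414-88198663) held 1 C/EBP site, 118 bases before that start. Of 32851 promoter windows of the same length, 66.2% held an E-box, 22.6% a GATA site, 23.3% the ETS core and 36.8% the C/EBP site, so the *Gata1* matches are common ones. The RefSeq windows covered 8 of the 10 genes with 11 starts, and none of the 11 held GATAA. An E-box was also found once in each of 2 *Gfi1* windows, 1 of which held a C/EBP site too, and 2 times in 1 of 2 *Irf8* windows. A match is a run of letters and does not show that a factor binds.

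The levels of the 10 factors in HSCs spread over a wide range (plot of levels by library). Per kilobase of the longest transcript, *Nfe2*, the large subunit of the platelet factor NF-E2, was highest at a mean of 7.72 log2 CPM per kb over the 4 libraries. *Gata2*, the GATA factor of stem and early progenitor cells, followed at 6.81, *Zfpm1*, which encodes the GATA cofactor FOG-1, at 5.47, and *Spi1* at 5.07. *Cebpb* stood at 4.89, *Gata1* at 4.10, *Gata3* at 3.87, *Gfi1* at 3.05 and *Irf8* at 1.04 log2 CPM per kb. *Cebpa*, needed for the step into the granulocyte and macrophage lineage, was lowest at -0.73. The ranges over the 4 libraries overlapped between neighbors in this order for *Spi1* and *Cebpb*, *Cebpb* and *Gata1*, and *Gata1* and *Gata3*, and were apart for the other neighbors. The order therefore put *Gata2*, *Nfe2* and *Zfpm1* above both myeloid master genes in every library.

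**Figure D1:**
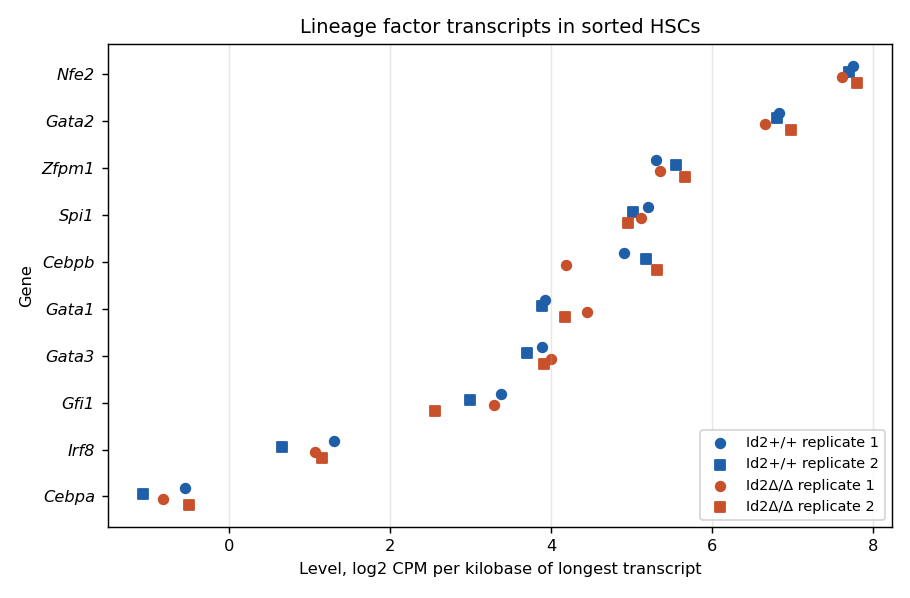
Level of each of the 10 lineage factors in log2 CPM per kilobase of the longest transcript (horizontal axis), genes in order of their mean, with 1 point per library for *Id2+/+* and *Id2Δ/Δ* replicates 1 and 2. Only *Gata1* and *Gata3* have both *Id2Δ/Δ* points to the right of both *Id2+/+* points, and *Cebpb* has the widest spread between *Id2Δ/Δ* points, 4.18 and 5.31.

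Loss of *Id2* left the levels of these factors without a detectable difference at this depth and replication. None of the 10 passed an adjusted p of 0.05 in limma with Benjamini-Hochberg adjustment, and neither did any of the 15895 genes tested (0.0%). At an unadjusted p under 0.05 the count was 0 of 10, against 742 of all tested genes (4.67%, made up of 1.72% higher and 2.95% lower in *Id2Δ/Δ* HSCs). The libraries did not overlap for 2 factors, *Gata1* and *Gata3*, both higher in *Id2Δ/Δ* HSCs, against 34.8% of tested genes in either direction and 19.0% in the higher direction. A share of 2 in 10 is thus near or below the background. The estimate was higher for 6 factors and lower for 4, against 51.7% higher among all tested genes. The median log2 fold change was 0.04 for the set and 0.01 for all genes, and the median size was 0.14 and 0.18. For 9 of the 10 the estimate was within 0.3 of 0 on the log2 scale, and for 8 the 95% interval stayed within 1 of 0.

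**Figure D2:**
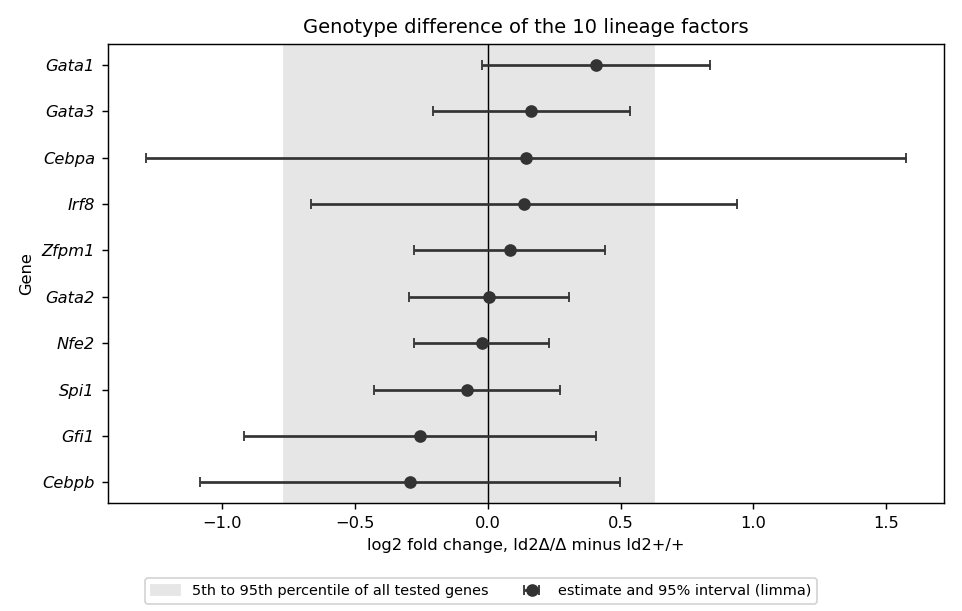
Genotype difference of each lineage factor as log2 fold change, *Id2Δ/Δ* minus *Id2+/+* (horizontal axis), with points for the limma estimate from 2 libraries a genotype, bars for its 95% interval, and a grey band from the 5th to the 95th percentile of all tested genes. Every interval crosses 0, and *Gata1*, at 0.41 with an interval from -0.02 to 0.84, comes nearest to leaving it.

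Among the factors of the red cell and platelet branch, *Gata1* (ENSMUSG00000031162.14) had the largest estimate. The gene (GRCm38 chromosome X, 7959260 to 7978071, minus strand) encodes the factor required for red cell and platelet formation. Its level was 4.85 and 4.81 log2 CPM in *Id2+/+* replicates 1 and 2, and 5.37 and 5.09 log2 CPM in *Id2Δ/Δ* replicates 1 and 2. Both *Id2Δ/Δ* libraries were above both controls, and *Id2Δ/Δ* replicate 1 was the highest. The log2 fold change was 0.41 ± 0.18 (SE), a 1.33-fold higher level with a 95% interval from 0.984 to 1.79 (limma, adjusted p = 0.910). Of all tested genes, 5.83% had a smaller p and 9.9% a rise at least as large. The red cell markers with values, 5 of 8, summed to 27.6 and 22.8 CPM in *Id2+/+* and 21.3 and 28.9 CPM in *Id2Δ/Δ*. *Hbb-bt*, the highest of them per length, had 4.11 and 4.11 against 4.15 and 4.30 log2 CPM, higher without overlap. *Alas2* had 61 and 62 against 54 and 35 reads, lower without overlap. *Hba-a1* and *Hba-a2* were at 0 reads in some libraries. The part of red cell RNA in the values of *Gata1* was not tested.

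*Gata2* (chromosome 6, 88193891 to 88207032, plus strand) was the most even between genotypes. It had 8.66 and 8.64 log2 CPM in *Id2+/+* and 8.49 and 8.81 log2 CPM in *Id2Δ/Δ*, with the controls between the *Id2Δ/Δ* libraries. Its log2 fold change was 0.0035 ± 0.13 (SE), with an interval from -0.30 to 0.30 (limma, adjusted p = 0.999). The interval leaves out a change as large as a doubling or a halving. *Zfpm1* (chromosome 8, 122282141 to 122337251, plus strand), whose product FOG-1 binds GATA1 and GATA2, had 7.06 and 7.31 log2 CPM in *Id2+/+* and 7.11 and 7.42 log2 CPM in *Id2Δ/Δ*. The genotypes alternated, with replicate 2 above replicate 1 in each, and the log2 fold change was 0.08 ± 0.15 (SE).

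*Nfe2* (chromosome 15, 103248212 to 103258403, minus strand) had 8.66 and 8.61 log2 CPM in *Id2+/+* and 8.52 and 8.70 log2 CPM in *Id2Δ/Δ*. The groups overlapped, and with a log2 fold change of -0.02 ± 0.11 (SE) and an interval from -0.28 to 0.23 it was the most tightly estimated of the 10. *Gata3* (chromosome 2, 9857078 to 9890034, minus strand), a T-cell factor that HSCs also express, had 5.57 and 5.39 log2 CPM in *Id2+/+* and 5.68 and 5.60 log2 CPM in *Id2Δ/Δ*. The groups did not overlap, but *Id2Δ/Δ* replicate 2 was barely above *Id2+/+* replicate 1, and the log2 fold change was 0.16 ± 0.16 (SE) (limma, adjusted p = 0.916). Only 2 of 8 T-cell markers had values, *Lck* and *Cd4*, and they summed to 22.7 and 26.2 CPM in *Id2+/+* and 23.5 and 26.1 CPM in *Id2Δ/Δ*.

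Among the myeloid factors no group stood apart. *Spi1* (chromosome 2, 91082390 to 91115756, plus strand) had 6.23 and 6.04 log2 CPM in *Id2+/+* and 6.13 and 5.98 log2 CPM in *Id2Δ/Δ*. The groups overlapped, with replicate 2 the lower library in both genotypes, and the log2 fold change was -0.08 ± 0.15 (SE), with an interval from -0.43 to 0.27. *Cebpa* (chromosome 7, 35119293 to 35121928, plus strand) was so low that counting error is large. It had 26 and 20 reads in *Id2+/+* and 26 and 31 reads in *Id2Δ/Δ*, with exact Poisson 95% intervals from 12.2 to 44.0 reads over the 4 libraries. These are 0.85 and 0.33 log2 CPM in *Id2+/+* and 0.57 and 0.89 log2 CPM in *Id2Δ/Δ*. Summed over libraries and scaled to depth, the *Id2Δ/Δ* to *Id2+/+* ratio of reads was 1.01 with an interval from 0.674 to 1.53, which covers counting error only. The limma interval, from -1.29 to 1.58 on the log2 scale, was the widest of the set and takes in both a doubling and a halving.

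*Cebpb* (chromosome 2, 167688915 to 167690418, plus strand), the C/EBP factor of emergency granulopoiesis and macrophages, varied most. It had 5.50 and 5.76 log2 CPM in *Id2+/+*, 4.77 log2 CPM in *Id2Δ/Δ* replicate 1 and 5.90 log2 CPM in *Id2Δ/Δ* replicate 2. The *Id2Δ/Δ* libraries were thus the lowest and the highest of the 4. The gap of 1.13 between them was matched or exceeded in 9.69% of tested genes, and the log2 fold change was -0.29 ± 0.34 (SE) (limma, adjusted p = 0.924). The direction rests on 1 library: without *Id2Δ/Δ* replicate 1 the log2 fold change was 0.27, and without *Id2Δ/Δ* replicate 2 it was -0.86 (limma, adjusted p = 0.267). In that last fit, where the remaining *Id2Δ/Δ* library is assumed to vary like the controls, *Cebpb* and *Gata1* were the 2 factors under an unadjusted p of 0.05, *Gata1* with a log2 fold change of 0.55 (limma, adjusted p = 0.278), and 15.8% of all tested genes had an unadjusted p under 0.05.

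*Gfi1* (chromosome 5, 107716657 to 107726036, minus strand), a repressor that protects HSCs and directs granulocyte fate, had 419 and 355 reads in *Id2+/+* and 493 and 318 reads in *Id2Δ/Δ*, or 4.89 and 4.51 against 4.80 and 4.08 log2 CPM. Both replicate 2 libraries were below both replicate 1 libraries. The log2 fold change was -0.26 ± 0.28 (SE), with an interval from -0.92 to 0.41. Scaled to depth, the *Id2Δ/Δ* to *Id2+/+* ratio of summed reads was 0.856 with an interval from 0.775 to 0.946, but this covers counting error and leaves out the spread between libraries. The sum over neutrophil markers had the same library order. The 9 of 10 markers with values summed to 140.3 and 45.0 CPM in *Id2+/+* and 80.6 and 17.3 CPM in *Id2Δ/Δ*, with *Retnlg* at 0 reads in some libraries. *Mmp8* and *Cxcr2*, named after their values were seen, were instead higher in *Id2Δ/Δ* than in *Id2+/+* at each replicate number. The part of the neutrophil markers in the values of *Gfi1* was not tested.

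*Irf8* (chromosome 8, 120736358 to 120756694, plus strand) had 124 and 87 reads in *Id2+/+* and 128 and 138 reads in *Id2Δ/Δ*, which are 3.09 and 2.45 against 2.86 and 2.95 log2 CPM. The controls were the highest and the lowest library. The log2 fold change was 0.14 ± 0.34 (SE), with an interval from -0.67 to 0.94, and the ratio of summed reads scaled to depth was 1.03 with a counting interval from 0.856 to 1.24.

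Because several of these factors oppose or succeed each other, the balance of 9 pairs was taken within each library as a log2 ratio of levels per length (plot of ratios). The *Gata1* to *Spi1* ratio, which sets the erythroid and megakaryocytic factor against the myeloid one, was -1.29 and -1.14 in *Id2+/+* and -0.66 and -0.79 in *Id2Δ/Δ*. *Spi1* exceeded *Gata1* in all 4 libraries, and both *Id2Δ/Δ* libraries lay nearer to balance than both controls. The difference was 0.48 on the log2 scale, or 1.40-fold. With 2 libraries against 2, an exact two-sided permutation test cannot go below 0.333, which is the value here, and the p adjusted over the 9 pairs was 0.75. Within replicate numbers 1 and 2 the difference was 0.62 and 0.35.

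The *Gata1* to *Gata2* ratio, which rises when erythroid cells switch from GATA2 to GATA1, was -2.91 and -2.92 in *Id2+/+* and -2.21 and -2.81 in *Id2Δ/Δ*. The groups did not overlap, and the difference of 0.40 came mostly from *Id2Δ/Δ* replicate 1, without which it was 0.10 (exact permutation p = 0.333 over all 4). The *Nfe2* to *Gata1* ratio was 3.83 and 3.82 in *Id2+/+* and 3.17 and 3.63 in *Id2Δ/Δ*, a difference of -0.43, also without overlap (exact permutation p = 0.333). These 3 ratios share *Gata1* and are not separate observations. In the other 6 pairs the genotypes overlapped. *Zfpm1* to *Gata1* differed by -0.32, *Gata2* to *Spi1* by 0.08, *Cebpa* to *Spi1* by 0.22, *Cebpa* to *Cebpb* by 0.44, *Gfi1* to *Irf8* by -0.39 and *Spi1* to *Irf8* by -0.22, with exact permutation p-values of 0.667 or 1.0.

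**Figure D3:**
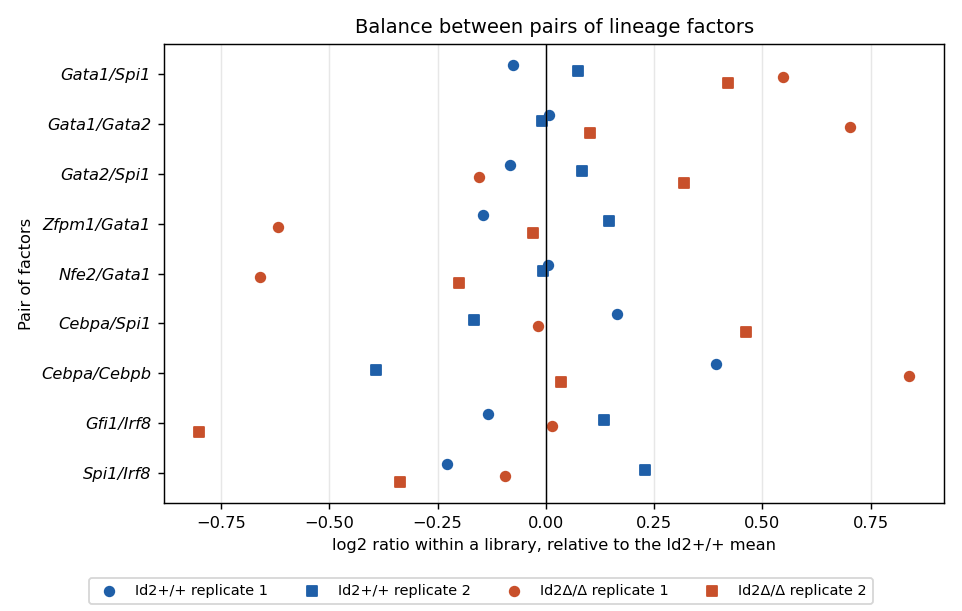
Log2 ratio between 2 factors within a library, shown relative to the *Id2+/+* mean of that pair (horizontal axis), for 9 pairs, with 1 point per library. For *Gata1*/*Spi1*, *Gata1*/*Gata2* and *Nfe2*/*Gata1* both *Id2Δ/Δ* points lie on one side of both *Id2+/+* points, and the other 6 pairs overlap.

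The partners and target genes of the factors were read from 8 lists written with earlier results of these data known (plot of lists). Together they hold 142 genes, of which 106 were tested, and none passed an adjusted p of 0.05. At an unadjusted p under 0.05, 5 were higher and 7 lower in *Id2Δ/Δ* HSCs, 11.3% against the background of 4.67%. The libraries did not overlap for 16 genes in the higher and 22 in the lower direction, 35.8% against 34.8%.

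Of the 17 GATA partners and co-regulators, 8 were higher and 9 lower, none at an unadjusted p under 0.05, and the median log2 fold change was -0.06 against 0.01 for all genes. *Tal1*, the E-box partner of the GATA complex, had 5.88 and 6.08 log2 CPM in *Id2+/+* and 6.38 and 6.21 log2 CPM in *Id2Δ/Δ*, a log2 fold change of 0.31 ± 0.15 (SE). Its relative *Lyl1* had 4.41 and 4.52 against 4.89 and 4.53 log2 CPM, a log2 fold change of 0.25 without overlap. *Lmo2*, the bridge between TAL1 and GATA factors, had 10.02 and 9.91 against 9.82 and 9.80 log2 CPM, a log2 fold change of -0.15, and *Runx1* had -0.17, both also without overlap. *Myb*, *Hdac1* and *Mta2*, with *Lmo2* the most abundant of the list per length, had log2 fold changes of -0.08, 0.09 and 0.02.

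Of the 8 NFE2 partners and relatives, 3 were higher and 5 lower, with a median of -0.01. Of the small MAF proteins that pair with NFE2, *Mafg* had a log2 fold change of -0.0033 and *Mafk* of 0.02. The remaining one, *Maff*, named after its values were seen, had 98 and 153 against 100 and 166 reads, with overlap, and a log2 fold change of -0.17 ± 0.37 (SE). *Nfe2l1*, a stress-response relative, had 6.78 and 6.79 against 6.58 and 6.42 log2 CPM (log2 fold change -0.29 ± 0.13 SE). *Bach2*, a repressor that competes for MAF partners, had 231 and 272 against 284 and 149 reads. Scaled to depth, these are 4.02 and 4.13 against 3.98 and 3.05 log2 CPM, lower without overlap (log2 fold change -0.55). Of the 8 tested family relatives, 3 were higher and 5 lower, with a median of -0.08. *Trps1*, a GATA-type repressor, had 315 and 397 reads in *Id2+/+* and 85 and 311 reads in *Id2Δ/Δ*. It was the only relative at an unadjusted p under 0.05 (log2 fold change -1.43 ± 0.52 SE, limma, adjusted p = 0.910), and *Id2Δ/Δ* replicate 1 stood far below the rest. *Gfi1b*, the erythroid and megakaryocytic paralog of *Gfi1*, had a log2 fold change of 0.05.

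Genes that GATA1 is known to switch on gave no common direction. Of 20 tested erythroid targets, 10 were higher and 10 lower, with a median of -0.0063. *Tfrc*, the transferrin receptor for iron uptake, had 5.27 and 5.24 log2 CPM in *Id2+/+* and 5.77 and 5.79 log2 CPM in *Id2Δ/Δ*, a log2 fold change of 0.52 ± 0.15 (SE) (limma, adjusted p = 0.910). The heme synthesis genes *Cpox* and *Alas2* had log2 fold changes of -0.37 and -0.68, opposite in sign to *Tfrc*, and *Urod*, of the same pathway, had 0.15. Megakaryocyte targets held the most genes at an unadjusted p under 0.05 of the lists with over 10 tested genes, 3 higher and 2 lower of 21 (23.8% against 4.67%), with 12 higher and 9 lower in all and a median of 0.06.

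*Pf4*, a platelet granule chemokine, had 6.13 and 6.68 log2 CPM in *Id2+/+* and 7.23 and 6.86 log2 CPM in *Id2Δ/Δ*, a log2 fold change of 0.65 ± 0.21 (SE). *Gp1bb*, a subunit of the platelet receptor for von Willebrand factor, had 131 and 170 against 344 and 262 reads (0.75 ± 0.27 SE). *Clec1b*, the platelet receptor CLEC-2, had 39 and 42 against 226 and 80 reads (1.52 ± 0.53 SE). In all 3 the higher *Id2Δ/Δ* library was replicate 1. This was not so for *Gp9*, named after its values were seen, with 5.47 and 5.24 against 5.60 and 5.84 log2 CPM. *Nbeal2*, needed for platelet granules, lay the other way, with a log2 fold change of -0.30. *Nbeal2* has a transcript of 8803 bases, and with a correction for transcript length its value was -0.19.

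Of 22 tested granulocyte and macrophage targets, 10 were higher and 12 lower, with a median of -0.01. *Cybb*, the catalytic subunit of the phagocyte oxidase, had 71 and 29 reads in *Id2+/+* and 1 and 9 reads in *Id2Δ/Δ* (log2 fold change -3.19 ± 0.92 SE), and *Tlr4*, a lipopolysaccharide receptor, had a log2 fold change of -0.54 ± 0.20 (SE), both under an unadjusted p of 0.05. Another oxidase subunit, *Ncf1*, had -0.69, just above that limit. The growth factor receptor genes *Csf3r* and *Csf2ra* had -0.0074 and -0.25, and *Prtn3* and *Lyz2* had 0.06 and 0.14. Of 9 tested monocyte and dendritic cell genes, linked to IRF8, 4 were higher and 5 lower, with a median of -0.07. *Cd74*, the invariant chain of MHC class II, had 8.08 and 7.98 against 7.56 and 7.58 log2 CPM (log2 fold change -0.46 ± 0.11 SE, limma, adjusted p = 0.910).

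The mast cell and basophil list, linked to GATA2 and C/EBPα, had values for 5 of 13 genes and 3 tested. *Prss34*, a basophil protease, had 0 reads in both *Id2+/+* libraries and 143 and 6 reads in *Id2Δ/Δ* replicates 1 and 2. *Cpa3*, a mast cell protease, had a log2 fold change of -0.41, which is also the median of the list. The receptor gene *Kit* had -0.63 ± 0.13 (SE) (limma, adjusted p = 0.910). *Kit* is also on the HSC marker list, and the cells were sorted as KIT positive.

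**Figure D4:**
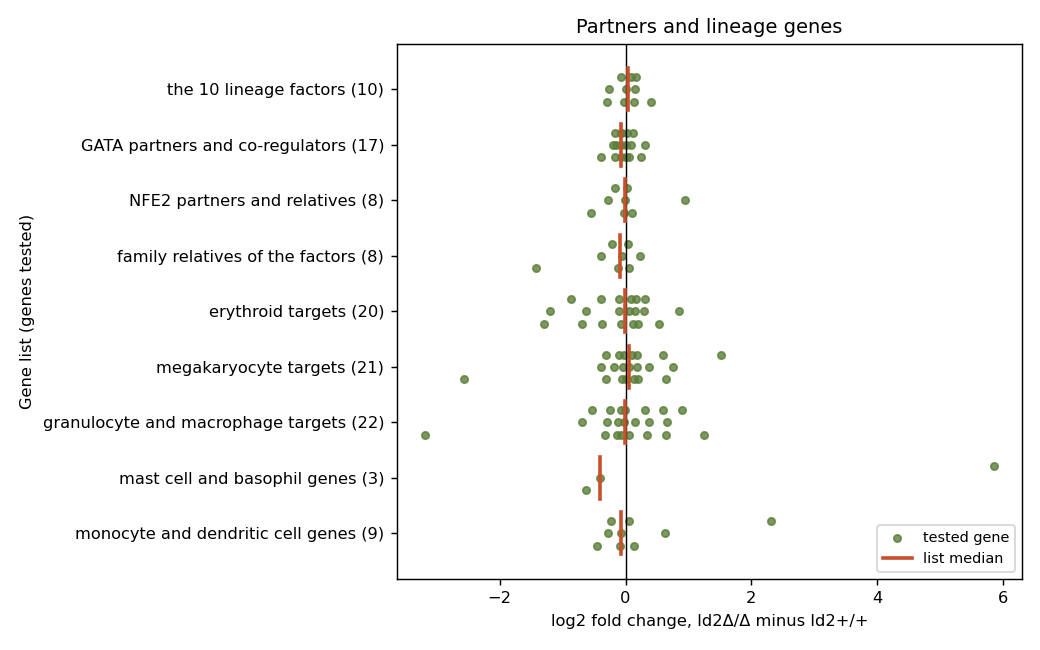
Log2 fold change, *Id2Δ/Δ* minus *Id2+/+* (horizontal axis), of every tested gene of the 10 lineage factors and of 8 lists, with the number tested in brackets, points for genes and a red line for the list's median. The medians lie between -0.41 and 0.06, and the point at 5.86, *Prss34*, is a fit against 2 libraries at 0 reads and depends on the value listed for 0.

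How far the factors varied within a genotype was compared with all genes. The median size of the gap between replicates was 0.22 log2 units in *Id2+/+* and 0.29 in *Id2Δ/Δ*, against 0.19 and 0.29 over all tested genes. The gap was larger in *Id2Δ/Δ* for 6 of the 10 factors, against 63.2% of genes. Replicate 2 lay on the same side of replicate 1 in both genotypes for 6 of 10, against 50.0% of genes. *Gfi1* (-0.38 and -0.73), *Spi1* (-0.19 and -0.15), *Gata1* (-0.04 and -0.28) and *Gata3* (-0.18 and -0.08) were lower in replicate 2 of both genotypes. *Cebpb* (0.26 and 1.13) and *Zfpm1* (0.25 and 0.31) were higher. The plot of replicate gaps places the neutrophil markers in the quadrant that holds *Gfi1*, *Spi1*, *Gata1* and *Gata3*, at larger gaps. *Cebpb* and *Zfpm1* lie in the opposite quadrant.

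**Figure D5:**
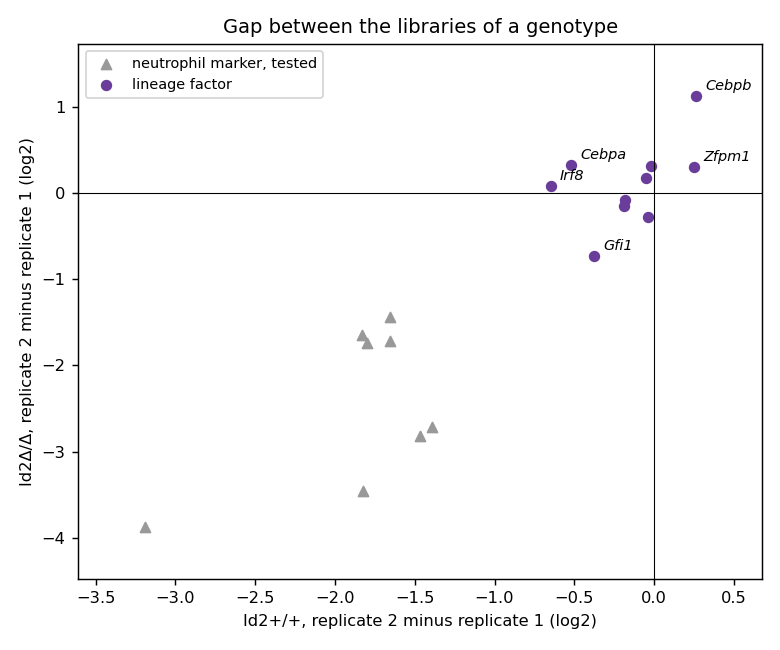
Replicate 2 minus replicate 1 in log2 units, for *Id2+/+* (horizontal axis) and *Id2Δ/Δ* (vertical axis), with circles for the 10 lineage factors and triangles for tested neutrophil markers. *Cebpb* has the largest gap of the factors, 1.13 in *Id2Δ/Δ*, and the neutrophil markers all lie lower in replicate 2 of both genotypes.

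The genes whose pattern over the 4 libraries was nearest to that of *Gata1*, by the largest difference of centered log2 values, were *Rps18-ps1* (0.0023), *Pno1* (0.0068) and *Rpl36a-ps1* (0.015). For *Spi1* they were *Inip* (0.018), *Gm26679* (0.021) and *Itpa* (0.021). With 4 libraries such matches are frequent: 134 genes lay within 0.1 of *Gata1* and 582 within 0.1 of *Spi1*. The symbols ending in -ps1 mark pseudogenes, which share reads with their parent genes.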

How the data were processed

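The authors deposited log2 CPM values for 19354 genes in 4 libraries, quantile-normalized: the sorted columns differed by less than 0.1 in 88.4% of ranks. Per the labels, the submitters' processing notes name CASAVA 1.8.4, Trimmomatic 0.30, TopHat2 2.0.8, RSEM, STAR and the builds mm9 and NCBIM37, without their roles. Strand use is not given in the sources used here, so overlapping and antisense genes are uncertain. GENCODE M21 (GRCm38) supplied coordinates and lengths through gene identifiers (99.7% of genes), so coordinates are not on the submitters' build. Promoter windows are from RefSeq.

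Below 32 CPM, the rank of a distinct value gave whole reads, to within 1 read on simulated data, and depth. A count of 0 allows 3 reads, 0.159 to 0.211 CPM. Intervals on reads cover counting error only. The 15895 genes averaging 1 CPM or more entered a limma 3.58.1 fit (R 4.3.3, lmFit, eBayes with trend, genotype only, no pseudocount), two-sided, with Benjamini-Hochberg adjustment over all genes. Ratios were tested by exact permutation in scipy 1.17.1. The limma script was tested on simulated data. Alternatives varied the pseudocount, filter, scaling, trend, replicate block, length correction and libraries.

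The factors, lists, pairs and naming rule were chosen with earlier results of these data known. Named list genes were the 4 highest per length and the 4 with the smallest p and no overlap of libraries, and not all are reported.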

Additional observations from a re-analysis of the deposited data

How the results depend on the processing

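The labels do not tie a replicate number to an experiment, and deviations of same-numbered libraries correlated at 0.0592 across genes (0.139 over 7332 genes above 32 CPM). Under a replicate block, 1 gene passed an adjusted p of 0.05, against 0 without it and 0 under the block with the length correction, and no lineage factor passed in any of these fits. *Gata1* had 0.35 with a pseudocount of 5 CPM and 0.39 with the length correction, on the log2 scale. Median-ratio scaling, which moved a library by at most 0.016, gave *Gata2* -0.0094. With libraries of replicate number 1 alone, *Gata2* was -0.17, *Cebpa* -0.28 and *Irf8* -0.23, and with number 2 alone *Cebpb* was 0.14 and *Nfe2* 0.091, all opposite in sign to the values above. List medians also moved. With number 2 alone they were 0.012 for GATA partners, -0.17 for NFE2 partners, 0.20 for erythroid targets and -0.046 for mast cell and basophil genes. With number 1 alone they were 0.14 for megakaryocyte targets and -0.77 for mast cell and basophil genes. The megakaryocyte median was 0.082 with a mean of at least 10 CPM, and 0.10 with the length correction, with or without the replicate block. The causes were not tested.

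Leaving out 1 library at a time gave 0 genes called, 0 to 2 factors at an unadjusted p under 0.05, and 4 to 9 factors without overlap, since a group of 1 overlaps less. The share of all tested genes without overlap was not taken in these fits. The counts of 4 to 9 factors therefore cannot be set against the 34.8% of tested genes found with all 4 libraries. Log2 fold changes ran from 0.27 to 0.55 for *Gata1*, -0.16 to 0.16 for *Gata2*, 0.074 to 0.25 for *Gata3*, -0.072 to 0.24 for *Zfpm1*, -0.17 to 0.016 for *Spi1*, -0.12 to 0.40 for *Cebpa*, -0.86 to 0.27 for *Cebpb*, -0.62 to 0.11 for *Gfi1*, -0.19 to 0.46 for *Irf8* and -0.11 to 0.067 for *Nfe2*. Only *Gata1* and *Gata3* kept their sign in all 4 fits. List medians ran from -0.12 to 0.068 for GATA partners, -0.049 to 0.065 for NFE2 partners, -0.20 to 0.027 for family relatives, -0.11 to 0.19 for erythroid, 0.052 to 0.12 for megakaryocyte, and -0.076 to 0.14 for granulocyte and macrophage targets, -0.71 to 0.068 for mast cell and basophil genes, and -0.15 to 0.097 for monocyte and dendritic cell genes. Ratio differences ran from 0.41 to 0.56 for *Gata1*/*Spi1*, 0.10 to 0.70 for *Gata1*/*Gata2*, -0.16 to 0.32 for *Gata2*/*Spi1*, -0.62 to -0.031 for *Zfpm1*/*Gata1*, -0.66 to -0.20 for *Nfe2*/*Gata1*, -0.019 to 0.46 for *Cebpa*/*Spi1*, 0.036 to 0.84 for *Cebpa*/*Cebpb*, -0.80 to 0.014 for *Gfi1*/*Irf8* and -0.44 to 0.013 for *Spi1*/*Irf8*. At the depth of these libraries, counting error alone left the *Cebpa* ratio of reads between 0.674 and 1.53.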
